A study of Mus musculus with 2 samples.

Results

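The choroid plexus epithelial cells of the mouse hippocampal preparation are described here in 2 single-cell RNA libraries. The cells were chosen by their own measured counts, so the genes of the rule are no finding. A cell barcode was taken when it held at least 1 UMI (unique molecular identifier, 1 counted RNA molecule) of 3 or more of the 7 gate genes Folr1, Kcnj13, Clic6, Kl, Otx2, Aqp1 and Calml4. It could hold at most 1 of the 8 exclusion genes Foxj1, Tmem212, Cx3cr1, Csf1r, Cldn5, Flt1, Mog and Aqp4, which mark ependymal cells, microglia, endothelium, oligodendrocytes and astrocytes. The rule found 367 of 28586 barcodes, 275 of 21583 in the control library and 92 of 7003 in the EMF_AuNPs library. The control mice received saline. The EMF_AuNPs mice had gold nanoparticles injected into the hippocampus and spent 3 weeks of exposure to an electromagnetic field made by Helmholtz coils. All were male C57BL/6 mice, 6 months old in the labels although the sample titles call the brain aged. Whether the saline mice shared the coils is not clear from the labels, and no source used here gives the substrain or how many animals went into each library. Each group is a single library, so no test was made, and every interval is a 95% interval for counting error only, never for the spread between animals.

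The choroid plexus is a vascular fold in the brain ventricles, covered by a single layer of epithelium that secretes cerebrospinal fluid. Its cells move sodium, chloride, bicarbonate and water into the ventricle, carry vitamins and hormones across, secrete transthyretin and other proteins, and form the blood-cerebrospinal fluid barrier with their tight junctions. The lateral ventricle plexus lies beside the hippocampus and can be carried along when that tissue is dissected.

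The library totals were 51091452 UMIs in the control and 19544686 in EMF_AuNPs, with median depths of 1904 and 2310.0 UMIs per barcode. The gated barcodes held 2800145 and 847162 UMIs, with medians of 10597 and 6848 UMIs and of 2303 and 2088.5 genes. Depth differed widely within the gate, since 23 control and 14 EMF_AuNPs barcodes had under 2000 UMIs while 150 and 43 had 10000 or more. The libraries shared 38 barcode sequences, and 0 of them were gated in both. Hippocampal neurons were rare in the suspension, with at least 3 of 7 neuron markers in 270 control barcodes (1.25%) and 35 EMF_AuNPs barcodes (0.500%).

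Transthyretin, the thyroxine carrier encoded by Ttr, was not used by the rule and was the most abundant RNA of these cells. It made up 42.6% of all UMIs of the gated control barcodes and 35.1% of those of the gated EMF_AuNPs barcodes. In barcodes with fewer than 3 gate genes it made up 0.945% and 0.580%. Ttr is nevertheless found nearly everywhere as free RNA, and 1 control and 2 EMF_AuNPs barcodes of the whole series had no Ttr UMI. Barcodes gated as microglia, which should lack the gene, held a Ttr share of 0.974% in the control and 0.526% in EMF_AuNPs. Per gated barcode the Ttr share ran from 0.449% to 73.3% in the control with a median of 43.3%, and from 8.01% to 59.9% with a median of 35.9% in EMF_AuNPs. The ranges overlap over most of their length, and the lowest values, under 5%, came from 5 control barcodes and 0 EMF_AuNPs barcodes.

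**Figure D1:**
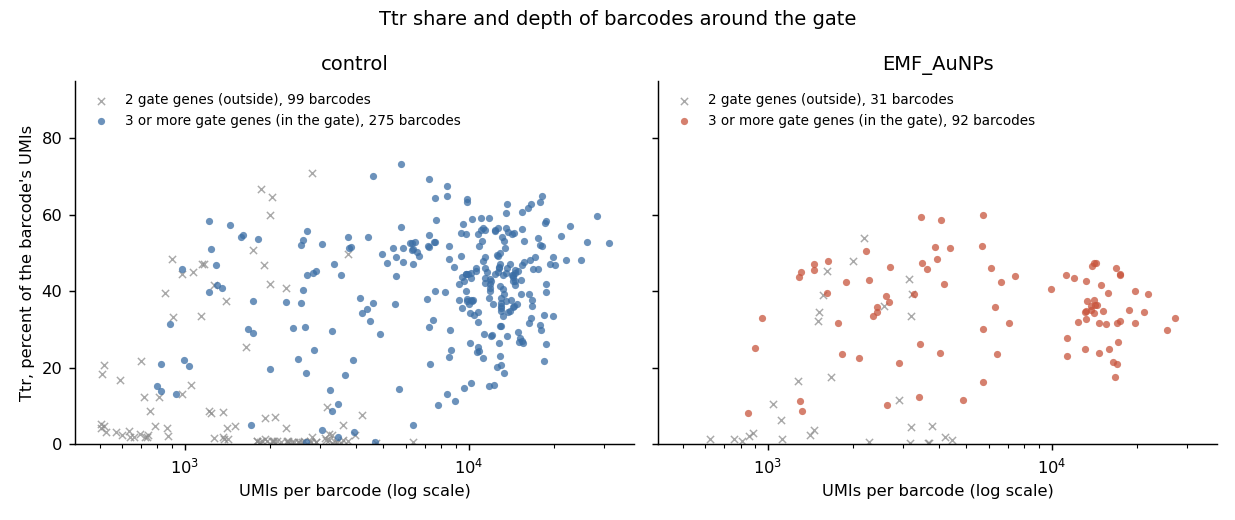
Each point is 1 barcode, with its UMIs on a log axis and the Ttr share of its UMIs in percent, for the control (left) and EMF_AuNPs (right). Filled points are gated barcodes, mostly above 20%, and crosses are barcodes with 2 gate genes and at most 1 exclusion gene, many of which lie near 0 and some as high as the gated ones.

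At the edge of the rule, 26 control and 16 EMF_AuNPs barcodes had exactly 3 gate genes, with a median Ttr share of 40.0% and 42.7%. Just outside it, 99 and 31 barcodes had 2 gate genes, with a median of 2.52% and 4.62%. The rule also misses some barcodes rich in Ttr, as 46 control and 18 EMF_AuNPs barcodes with fewer than 3 gate genes had a share of at least 20%. The whole set of 7 gate genes was found in 115 and 40 gated barcodes.

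The gate genes themselves describe the selection and are given with no test. Folr1, the folate receptor that carries folate into the fluid, was found in 96.7% of gated control and 93.5% of gated EMF_AuNPs barcodes. Kcnj13, an inward rectifier potassium channel, was found in 94.2% and 95.7%, and Kl, the anti-ageing hormone and coreceptor klotho, in 88.0% and 79.3%. Clic6, a chloride channel family member, was found in 76.7% and 80.4%, and Calml4, a calmodulin-like protein, in 93.8% and 81.5%. Otx2, the homeodomain factor needed to form and keep the plexus, was found in 72.7% and 64.1%, and Aqp1, the apical water channel, in 60.4% and 59.8%. Levels are in CPM, a gene's UMIs scaled to a total of 1000000 UMIs summed over a population. Clic6 stood at 256 CPM in the control and 641 CPM in EMF_AuNPs, Kl at 415 and 853 CPM and Kcnj13 at 669 and 1150 CPM. Folr1 stood at 976 and 1067 CPM, Otx2 at 199 and 248 CPM and Aqp1 at 112 and 138 CPM. Calml4 went the other way, at 659 and 544 CPM. The rule used these same counts, so no difference between the libraries is read from them. In ependymal-gated barcodes Calml4 was found in 74.4% and 63.2% and Folr1 in 28.2% and 23.7%, so these genes are shared with that cell type. In microglia-gated barcodes Folr1 was found in 2.32% and 1.20%, at median depths of 1650.5 and 2041.5 UMIs against 10597 and 6848 in the gate.

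Outside the rule, the 15 genes with the highest level in the gate over all other barcodes are mostly known genes of this epithelium, and the label was kept. They were Ttr, Sostdc1, Prlr, 1500015O10Rik, Wfdc2, Htr2c, Atp2b3, Sulf1, Ace, Kcne2, Vat1l, Rdh5, F5, Cox8b and Hemk1, with the lower of the 2 libraries' folds between 7.68 and 12.7. Prlr, the prolactin receptor, stood at 1042 CPM in the gated control barcodes and 2050.4 CPM in the gated EMF_AuNPs barcodes, against 14.5 and 12.5 CPM in barcodes with fewer than 3 gate genes. Htr2c, the serotonin 2C receptor first described in this epithelium, stood at 306 and 425 CPM, against 4.59 and 2.43 CPM. Sostdc1, a secreted BMP and Wnt antagonist, stood at 1368 and 1441 CPM, against 23.2 and 14.5 CPM. Each of the 15 genes was higher in the gate of both libraries, which the ranking by the lower fold sets in advance. The gate was also drawn on the same cells, so these folds are a description.

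**Figure D2:**
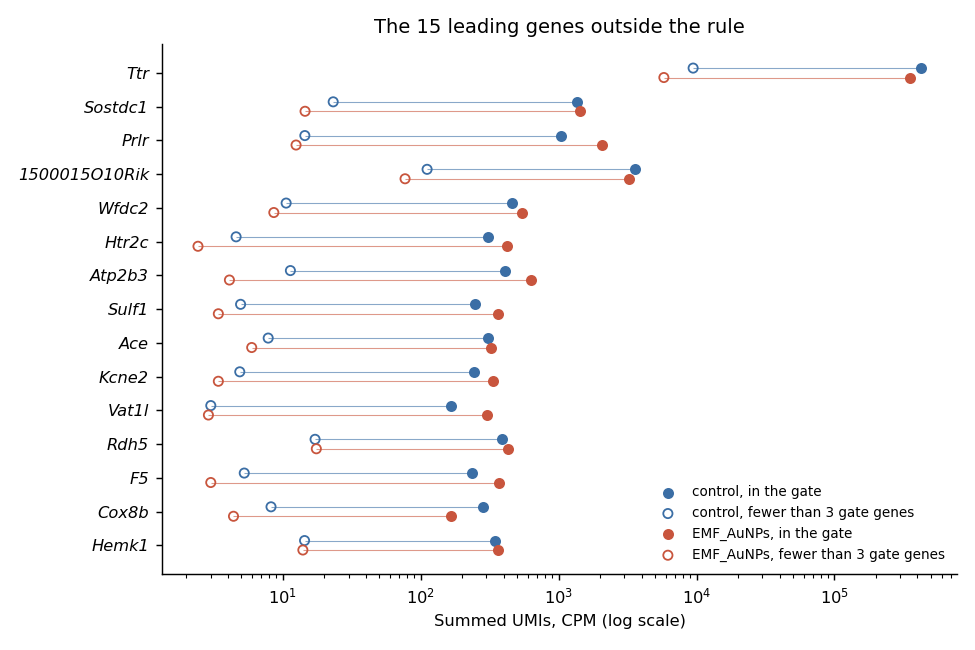
Levels of the 15 leading genes in CPM on a log axis, in gated barcodes (filled) and in barcodes with fewer than 3 gate genes (open), for the control (blue) and EMF_AuNPs (red). Every line runs from a low open point to a high filled one in both libraries.

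Promoters of these genes are shown for a match to TAATCC, the core motif bound by OTX2, because Otx2 is a gate gene and the leading genes were high together. RefSeq (GRCm38.p6, the mm10 assembly) windows of the 250 bases before a start site were used for 10 of the 15 leading genes. The motif, searched on both strands as TAATCC or GGATTA, which do not overlap each other, was found for 2 of these 10 genes (20%), Ace and Vat1l. Over all 27025 genes with an entry 7.21% held it, or 6.25% of the 32851 promoter windows. Among the 5 gate genes with an entry Otx2 alone had a match, in 1 of its windows. Ace encodes the angiotensin-converting enzyme, and its matching window lies on the plus strand at chr11:105967698-105967947. Vat1l encodes an oxidoreductase-like protein, and its window lies on the plus strand at chr8:114205390-114205639. Both run 5′ to 3′ with the motif in capitals, which starts 27 bases before the start site of Ace and 79 bases before that of Vat1l.
Ace: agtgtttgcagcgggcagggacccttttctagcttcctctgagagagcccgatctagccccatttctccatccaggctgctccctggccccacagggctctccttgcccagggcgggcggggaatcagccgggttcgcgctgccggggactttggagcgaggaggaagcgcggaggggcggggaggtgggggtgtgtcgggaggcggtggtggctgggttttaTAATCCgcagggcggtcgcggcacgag
Vat1l: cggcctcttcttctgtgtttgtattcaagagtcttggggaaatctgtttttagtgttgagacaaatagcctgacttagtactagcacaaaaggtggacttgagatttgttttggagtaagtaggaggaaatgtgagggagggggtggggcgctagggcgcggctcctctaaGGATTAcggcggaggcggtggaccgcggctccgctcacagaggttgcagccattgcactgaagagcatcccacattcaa
A match is a description of these letters and not a binding site. Within the gate Ace stood at 308 CPM in the control and 322 CPM in EMF_AuNPs, and Vat1l at 166 and 301 CPM.

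Genes that mark brain regions did not place these cells. The 10 Hox genes listed as marks of hindbrain tissue had 0 UMIs in the gated barcodes of both libraries, which allows up to 3 UMIs in each, but they summed to 1.20 and 0.809 CPM in barcodes with fewer than 3 gate genes too. The telencephalic genes Emx1, Emx2 and Lhx2 had 46 UMIs in the control gate and 14 in the EMF_AuNPs gate. Lhx2, at 5.71 and 7.08 CPM in the gate, stood at 57.7 and 110.2 CPM outside it, so its few UMIs in the gate lay under the level around them.

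The share of barcodes in the gate was 1.27% (Clopper-Pearson interval 1.13 to 1.43) in the control and 1.31% (1.06 to 1.61) in EMF_AuNPs. The difference of 0.0396 percentage points had a Newcombe interval from -0.249 to 0.366, so a difference of that size was not detectable at this depth. When barcodes of at least 1000 UMIs were first thinned to 1000 UMIs, the shares of these were 1.21% and 1.83%. The difference was 0.622 points (0.260 to 1.04). Shallower barcodes were left out, and the gate then held 217 control and 103 EMF_AuNPs barcodes. Thinning can hide exclusion genes as well as gate genes, so barcodes left out by the full rule may enter this gate. How much plexus came along with each dissected hippocampus was not measured, and this and the treatment cannot be told apart.

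The exclusion genes removed many deep barcodes that had 3 or more gate genes, 272 in the control and 108 in EMF_AuNPs. Foxj1, the regulator of motile cilia, was found in 54.8% and 62.0% of these, Cldn5 in 49.6% and 44.4% and Csf1r in 44.9% and 34.3%. Tmem212, the other ependymal gene of the rule, was found in 13.2% and 14.8%. Foxj1 was found in 18.5% and 17.4% of the gated barcodes, a difference that the rule itself sets. The left-out barcodes had a median depth of 12730.5 and 13737.5 UMIs, and Ttr made up 35.3% and 29.8% of their UMIs. They are kept apart below and their values stand beside those of the gate.

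To compare the libraries within the gate, UMIs were summed per library and the log2 ratio (EMF_AuNPs over control) was taken after adding 1 CPM to each level. The middle of these ratios over the 4393 genes tested, those with a mean of at least 20 CPM over both libraries and no role in the rule, lay at 0.32 in the gate and at 0.01 in barcodes with fewer than 3 gate genes. Ratios are therefore given relative to the median of the tested genes, and "higher" or "lower" means at least 1.5-fold (0.58 on the log2 scale) from it. In EMF_AuNPs 629 genes were higher (14.3% of those tested) and 597 were lower (13.6%). Counts of called members in the lists below are to be read beside these shares. Without centring 1363 were higher and 203 lower. The filter lets a gene pass through the library where it is high, and 280 of the higher genes lay under 20 CPM in the control and 73 of the lower ones under 20 CPM in EMF_AuNPs.

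The markers of the epithelium outside the rule did not move as a block. Of 20 tested members (22 listed, 21 in the files) 2 were higher (10%), Prlr and Slc4a10, and 2 were lower (10%), Tmem72 and Ttr. Their median was 0.02. Tmem72, a membrane protein whose role is not well known, stood at 194 CPM in the control and 120.4 CPM in EMF_AuNPs, with a log2 ratio of -1.004 (-1.33 to -0.70). It had a ratio of -1.41 in barcodes with fewer than 3 gate genes. The keratin genes Krt8 and Krt18 stood at 58.6 and 171 CPM in the control and 83.8 and 217 CPM in EMF_AuNPs, within the fold of 1.5.

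Among the secreted proteins 1 of 19 tested members was higher (5.26%) and 5 were lower (26.3%), against 14.3% and 13.6% of all tested genes. Members ran from -0.67 to 0.97, with a median of -0.18 that turns to 0.15 without centring. The lower genes were Ttr, Trf, Apoe, Ptgds and Igf2, and the higher one was the growth factor Bmp7, whose call held in 14 of 16 alternatives. Ttr had a log2 ratio of -0.60 (-0.61 to -0.60), just past the fold, and of -0.71 in barcodes with fewer than 3 gate genes. Igf2, the fetal growth factor that the plexus keeps secreting in adults, stood at 356 CPM in the control and 294 CPM in EMF_AuNPs, a ratio of -0.60 (-0.81 to -0.40). Trf, the iron carrier transferrin, stood at 464 and 365 CPM, with a ratio of -0.67 (-0.85 to -0.49). It is also a gene of oligodendrocytes, whose 8 markers summed to 714 and 588 CPM in the gate, and their part in this value was not tested. Apoe, the lipid carrier apolipoprotein E, stood at 6212 and 5106 CPM, but at 11683 and 13939 CPM in barcodes with fewer than 3 gate genes, so its level in the gate lay below that of the rest. Without centring none of Ttr, Igf2 and Trf was past the fold, and all 3 kept a negative ratio. Ttr kept its call in 9 of 17 alternatives, and Igf2 and Trf each in 12 of 17.

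Enpp2, which encodes autotaxin, the secreted enzyme that makes lysophosphatidic acid, was the largest of these genes after Ttr in both libraries' UMIs. It stood at 11782 CPM in the control and 20766 CPM in EMF_AuNPs, and its ratio of 0.49 (0.47 to 0.52) stayed within the fold of 1.5 after centring and was 0.82 before it. Among barcodes of 10000 UMIs or more the levels were 11533 CPM (11390 to 11678) and 21956 CPM (21605 to 22312). Barcodes of at least 2000 UMIs were also thinned to 2000 UMIs. The median was then 21 Enpp2 UMIs in 252 control barcodes, with quartiles of 15 and 29.25. It was 38 in 78 EMF_AuNPs barcodes, with quartiles of 23.25 and 49.75. These levels and counts are not centred. The ranges of single barcodes overlap, from 0 to 102 and from 0 to 114. In barcodes with fewer than 3 gate genes Enpp2 had a ratio of -0.34 (-0.37 to -0.31).

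Genes of ion and fluid transport, which drive fluid secretion, gave 3 higher and 0 lower members of 20 tested (27 listed). That is 15% higher, near the 14.3% of all tested genes. The median was 0.30, against 0.00 over all tested genes by construction, and 0.62 without centring. In barcodes with fewer than 3 gate genes 13 of the members were tested, with a median of -0.13. Slc12a2, the sodium-potassium-chloride cotransporter NKCC1 of the apical membrane, stood at 292 CPM (273 to 313) in the control and 849 CPM (788 to 913) in EMF_AuNPs, and these intervals do not overlap. Its ratio was 1.21 (1.07 to 1.36) in the gate and 1.15 in the barcodes that the exclusion genes left out. It was -0.00 (-0.05 to 0.05) in barcodes with fewer than 3 gate genes, 0.17 in endothelial-gated and 0.46 in microglia-gated barcodes. These populations come from the same 2 libraries, so the difference between them is a description.

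The direction for Slc12a2 was the same at a matched total depth, of which Ttr is a part. Ttr took a median of 43.65% of thinned control and 35.6% of thinned EMF_AuNPs barcodes, which held medians of 733 and 849 genes. The depth left for other genes was therefore not matched, and the shares and levels here are not centred. How much this adds to the differences was not tested. Thinned to 2000 UMIs, 40.9% of control barcodes (34.7 to 47.2) and 62.8% of EMF_AuNPs barcodes (51.1 to 73.5) had a Slc12a2 UMI, a difference of 21.95 points (9.26 to 33.5). The thinning left out 23 and 14 shallower barcodes, and the shares before thinning were 77.8% and 77.2%. In microglia thinned the same way the shares were 31.1% and 30.4%, a difference of -0.660 points (-4.52 to 3.26). In endothelial barcodes they were 14.4% and 17.7%, a difference of 3.33 points (0.0545 to 6.82). These intervals count barcodes within 1 library per group, which are not replicates of a treatment, and do not measure a spread between animals. Among barcodes of 2000 to under 10000 UMIs the level was 327 CPM in the control and 766 CPM in EMF_AuNPs, and among those of 10000 or more it was 283 and 875 CPM. The ratio stayed between 1.10 and 1.53 over the 17 alternative settings tried.

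The other higher members were Atp1b2, a beta subunit of the sodium pump, and Slc4a10, a sodium-dependent bicarbonate transporter of the basolateral membrane. Atp1b2 stood at 49.3 and 109 CPM with a ratio of 0.80 (0.42 to 1.21), and of 0.71 in barcodes with fewer than 3 gate genes. Its call was lost in 3 of 17 alternatives, all of them other gates, with a lowest ratio of 0.30. It is abundant in astrocytes too, whose 7 markers summed to 464 and 752 CPM in the gate, and their part was not tested. Slc4a10 stood at 218 CPM in the control and 421 CPM in EMF_AuNPs, with a ratio of 0.62 (0.43 to 0.82) in the gate and -0.27 outside it. Atp1b1, another beta subunit of the pump, stood at 742 and 1115 CPM with a ratio of 0.26 (0.15 to 0.37). Fxyd1, the pump regulator phospholemman, stood at 1447 and 1208 CPM, and its ratio of -0.58 reached the edge of the fold without passing it. Kcne2, a potassium channel subunit, had 0.14 (-0.06 to 0.34), and Trpv4, a calcium channel that senses swelling, had 0.03.

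**Figure D3:**
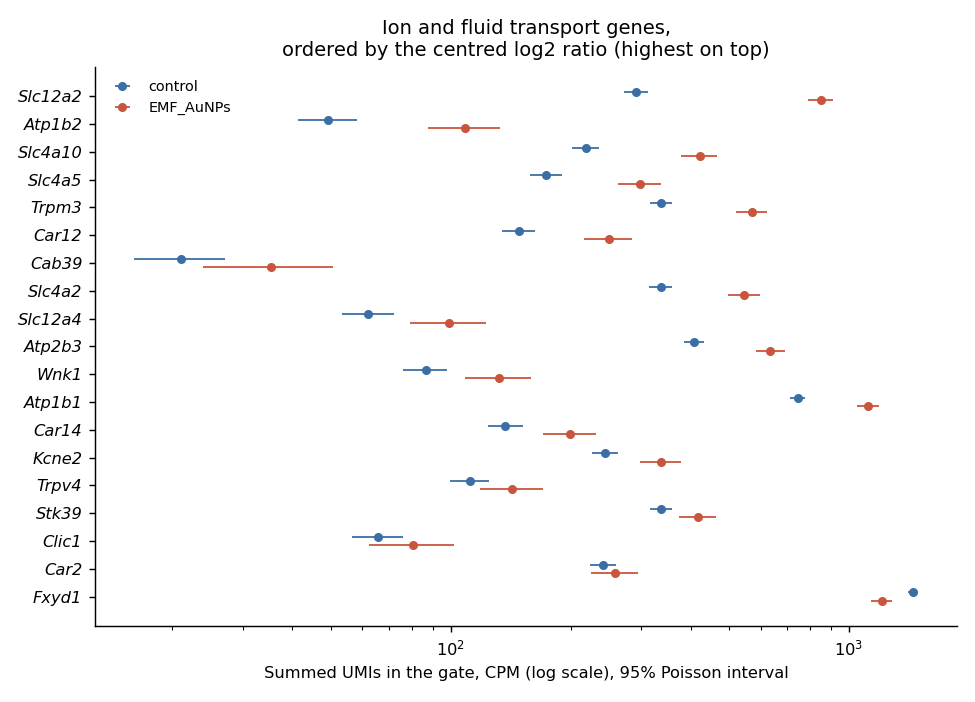
Summed levels in CPM on a log axis, with 95% Poisson intervals, of tested ion and fluid transport genes in gated control (blue) and EMF_AuNPs (red) barcodes. Slc12a2 on top went from 292 to 849 CPM, and Fxyd1 at the bottom from 1447 to 1208 CPM.

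Carriers of nutrients, vitamins and hormones gave 3 higher and 0 lower members of 18 tested (25 listed), with a median of 0.36. The 16.7% higher lay near the 14.3% of all tested genes. With each barcode weighted equally this median was -0.11, so its direction depends on that weighting. Slc23a2, the vitamin C transporter that loads ascorbate into the fluid, stood at 124 CPM in the control and 251 CPM in EMF_AuNPs, a ratio of 0.69 (0.44 to 0.94). It was 0.57 in the barcodes left out by the exclusion genes and 0.35 where fewer than 3 gate genes were found. The drug and prostaglandin exporter Abcc4 stood at 12.1 and 28.3 CPM and the amino acid carrier Slc38a2 at 25 and 53.1 CPM. The call of Slc38a2 held in 10 of 16 alternatives and that of Abcc4 in 11 of 12. With under 20 CPM in the control, Abcc4 passed the filter only through EMF_AuNPs. The thyroid hormone carrier Slco1c1 stayed within the fold with a ratio of 0.07, and so did the retinol receptor Stra6, with 0.36.

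Of the junction and polarity genes 7 of 17 were tested, 4 were higher and 0 lower. That is 57.1% higher, against 14.3% of all tested genes, but of few members. Their median was 0.82, with members from -0.52 to 0.90. This median was 0.07 with Ttr left out of the library total, where more members pass the filter, and 0.26 with no minimum level. Ctnnb1, the adherens junction protein beta-catenin, stood at 135 and 316 CPM, with a ratio of 0.89 (0.67 to 1.13) in the gate and 0.83 outside it. F11r, the junctional adhesion molecule JAM-A, stood at 36.8 and 85.0 CPM, with ratios of 0.86 in the gate and 0.31 outside it. The tight junction strand protein Cldn1 stood at 22.5 and 50.8 CPM, with a ratio of 0.82 (0.26 to 1.43). Occludin (Ocln) stood at 16.1 and 39.0 CPM, a call lost with no exclusion gene detected. With under 20 CPM in the control, Ocln passed the filter only through EMF_AuNPs. Cldn2, the cation-permeable claudin typical of this epithelium, stood at 117 and 208 CPM and stayed within the fold with a ratio of 0.49. The scaffold gene Tjp1 was not tested, at 18.2 and 12.98 CPM.

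Among the receptors 3 of 12 tested members were higher (25%, against 14.3% of all tested genes), Prlr, Tnfrsf1a and Insr, and 0 were lower. Prlr had a ratio of 0.65 (0.57 to 0.74) in the gate, 0.53 in the barcodes left out and -0.20 (-0.45 to 0.01) outside. Thinned to 2000 UMIs it was found in 80.2% of control and 82.1% of EMF_AuNPs barcodes, with medians of 2 and 3 UMIs. The call was lost with barcodes weighted equally and with no exclusion genes. Tnfrsf1a, the tumour necrosis factor receptor, and the insulin receptor gene Insr had 41 and 37 UMIs in the control and 29 and 26 in EMF_AuNPs. Both lay under 20 CPM in the control and passed the filter only through EMF_AuNPs. Their calls held in 13 of 16 and 13 of 14 alternatives. Htr2c stayed within the fold with 0.15 (-0.03 to 0.33). Of 9 transcription factors 5 were tested, and Gmnc, a regulator of multiciliated cells, was the 1 higher member (20%), at 26.1 and 50.8 CPM. Its call held in 12 of 16 alternatives.

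Cilium genes gave 0 higher and 0 lower members of 9 tested, with a median of -0.25 that became 0.08 without centring. Tubb4b, a ciliary tubulin, stood at 539 CPM in the control and 912 CPM in EMF_AuNPs, with a ratio of 0.43 (0.31 to 0.56) within the fold. The 8 ependymal markers summed to 262 and 263 CPM. This sum holds the exclusion genes Foxj1 and Tmem212, whose low counts the rule sets.

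Metal handling, oxidative and stress lists held few calls each. Mt3, a metallothionein that binds zinc and copper, stood at 2337 CPM in the control and 1670.3 CPM in EMF_AuNPs, a ratio of -0.81 (-0.89 to -0.73). It was the 1 lower of 6 tested metal genes (16.7%). It had -0.80 in the barcodes left out and 0.06 (0.04 to 0.07) where fewer than 3 gate genes were found, and its call was lost without centring. Mt1 and Mt2 stayed within the fold, with -0.43 and -0.54, as did the ferritin gene Fth1 with -0.26. Of 12 antioxidant genes 2 were higher, the catalase gene Cat and Gstp1, and 1 was lower, the superoxide dismutase gene Sod1. Those are 16.7% and 8.33%, against 14.3% and 13.6% of all tested genes. Cat stood at 41.1 CPM in the control and 133 CPM in EMF_AuNPs, with a ratio of 1.35 (0.99 to 1.76), and of 0.95 outside the gate. Sod1 stood at 403 and 297 CPM, with -0.76 in the gate and -0.65 outside it.

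Of 20 tested endoplasmic reticulum chaperones 3 were higher (15%) and 2 lower (10%), against 14.3% and 13.6% of all tested genes. Their median was 0.10. The higher ones were Canx, Dnajb9 and Sdf2l1 and the lower ones Pdia4 and Creld2. Canx, the lectin chaperone calnexin, stood at 231 and 525 CPM with a ratio of 0.86 (0.68 to 1.03), and 0.15 outside the gate. Pdia4, a disulfide isomerase, stood at 119 and 73.2 CPM with -1.02 (-1.44 to -0.63), and -0.99 outside. Heat shock genes gave 0 higher and 2 lower of 12 (16.7%), Hsp90ab1 with -0.73 and Hspa4l with -0.78. The call of Hsp90ab1 was lost without centring, and that of Hspa4l held in 12 of 16 alternatives. Hypoxia-responsive genes gave 2 higher (20%) and 1 lower (10%) of 10. Histone acetyltransferases gave 1 higher, Ep300, and 1 lower, Crebbp, of 7 (14.3% each). Of 4 tested clock genes 2 were higher (50%, against 14.3% of all tested genes), Nr1d2 and Hlf. Nr1d2 stood at 10.7 and 31.9 CPM, a call that held in 14 of 16 alternatives. With under 20 CPM in the control, Nr1d2 passed the filter only through EMF_AuNPs. Hlf lay at the edge of the fold with 0.59 (-0.06 to 1.27), a call that held in 4 of 16 alternatives.

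Fos and Egr1, immediate early genes of the stimulus response, were the 2 lower of 6 tested members and none was higher. That is 33.3% lower, against 13.6% of all tested genes, but of few members. Fos had 230 UMIs (82.1 CPM) in the control and 17 (20.1 CPM) in EMF_AuNPs, a ratio of -2.30 (-3.16 to -1.65). The ratio was -1.16 with at least 2 gate genes, -1.17 with no exclusion genes and -1.36 with barcodes weighted equally, still lower in each. It was -0.71 in barcodes with fewer than 3 gate genes and -1.24 in microglia. Egr1 had 118 and 14 UMIs, and 50% of the latter came from 1 barcode. It lay under 20 CPM in EMF_AuNPs and passed the filter only through the control. The glucocorticoid list gave 1 lower of 5 (20%), Dusp1, with 95 and 20 UMIs, of which 25% in EMF_AuNPs came from 1 barcode. Its ratio of -0.83 turned to 0.166 with barcodes weighted equally.

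Few immune genes reached the level tested. MHC class I and interferon genes gave 0 higher and 0 lower of 3 and 4 tested members. The interferon list summed to 1097 CPM in the control and 1285 CPM in EMF_AuNPs, against 1153 and 1545 CPM in barcodes with fewer than 3 gate genes. Of 19 genes of immune trafficking 1 was tested, Vcam1, an adhesion molecule for leukocytes, at 78.2 CPM in the control and 166 CPM in EMF_AuNPs. Its ratio was 0.76 (0.45 to 1.08) in the gate and 1.19 outside it, and its call was lost with barcodes weighted equally. S100a9, a neutrophil gene singled out after its values were seen, had 1 UMI in the control and 57 in EMF_AuNPs, and the 57 came from 1 barcode.

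Ribosomal protein genes were lower as a list. Of 75 tested members 31 were lower (41.3%, against 13.6% of all tested genes) and 0 were higher, with a median of -0.52. In barcodes with fewer than 3 gate genes 4 of these 75 were lower, against 7.97% of all genes tested in the gate, and 1 was higher, with a median of -0.18. Without centring 6 were lower and the median was -0.19. Rpl36, one of the 10 lowest genes, stood at 1433 CPM in the control and 989 CPM in EMF_AuNPs, with a ratio of -0.86 (-0.97 to -0.75) and -0.35 outside. Rpl23a stood at 731 and 400.2 CPM, with -1.19 in the gate and -0.85 outside. Summed ribosomal protein UMIs of the deepest barcodes, of 10000 UMIs or more, came to 82045 CPM in the control and 69771 CPM in EMF_AuNPs. Thinned to 2000 UMIs, the median barcode held 144.5 such UMIs (quartiles 102 and 189.25) in the control and 129.5 (103 and 156) in EMF_AuNPs, and the quartile ranges overlap. Nuclear-encoded respiratory chain genes gave 2 higher and 12 lower of 74, with a median of -0.33, which was -0.00 without centring. The 16.2% lower lay near the 13.6% of all tested genes, and 2.70% were higher. Per thinned barcode the summed median of the respiratory chain genes was 87 UMIs in the control and 86.5 in EMF_AuNPs.

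Malat1, an abundant RNA retained in the nucleus, stood at 9762 CPM in the control and 6439 CPM in EMF_AuNPs, a ratio of -0.92 (-0.97 to -0.88). It was -0.40 in barcodes with fewer than 3 gate genes. Its part in the ribosomal values was not tested. Kcnq1ot1, another nuclear RNA, stood at 83.9 and 166 CPM and was higher, with a ratio of 0.66 that kept the call in 13 of 17 alternatives.

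**Figure D4:**
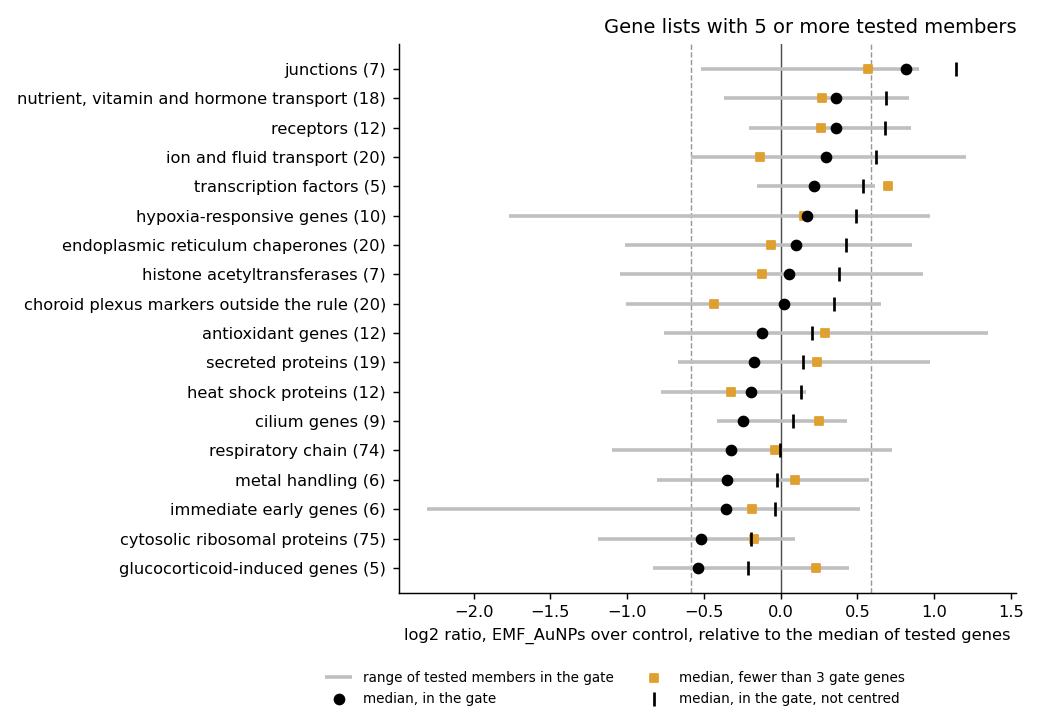
Median log2 ratio of each gene list with at least 5 tested members (number in brackets) in the gate (black points, with the range of members in grey), in barcodes with fewer than 3 gate genes (squares) and in the gate without centring (ticks). Dashed lines mark the fold of 1.5. Junction genes lay highest at 0.82, with 7 tested members from -0.52 to 0.90. Ribosomal protein genes lay at -0.52, and several medians, those of secreted proteins and cilium genes among them, cross 0 without centring.

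Among the 1248 tested genes no lower in the gate than in the other barcodes of either library, 176 (14.1%) were higher and 129 (10.3%) lower. The 10 highest by the interval bound nearest 0 were Nnt, Atp2c1, Tc2n, Ids, Slc12a2, Cntn1, Pgrmc1, Mdfic, Cat and Mapk1ip1l. The limit of the filter given above holds for this ranking too, since it could let a gene in through EMF_AuNPs alone. Nnt, a mitochondrial transhydrogenase (mm10 chromosome 13, 119335448 to 119408997, minus strand), stood at 12.1 CPM in the control and 66.1 CPM in EMF_AuNPs, with a ratio of 2.03 (1.48 to 2.78). The ratio was 1.69 in barcodes with fewer than 3 gate genes and 1.17 in microglia. With under 20 CPM in the control, this gene passed the filter only through EMF_AuNPs. Nnt is known to differ between C57BL/6 substrains, the substrain is not given, and substrain and treatment cannot be told apart here. Wdfy1, also known to differ between substrains, had a ratio of 1.40 in the gate and 1.45 outside it.

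Cntn1, a neural adhesion protein (mm10 chromosome 15, 92051165 to 92341967, plus strand), stood at 210.0 CPM (193 to 228) in the control and 619 CPM (567 to 674) in EMF_AuNPs. Its ratio was 1.23 (1.06 to 1.41) in the gate, 1.24 in the barcodes left out and 0.40 (0.28 to 0.54) outside. Thinned to 2000 UMIs it was found in 32.9% of control and 57.7% of EMF_AuNPs barcodes, a difference of 24.8 points (12.2 to 36.5). In microglia it was found in 4.57% and 4.60%. These shares have the limits given for Slc12a2. Ids, a lysosomal sulfatase (mm10 chromosome X, 70343069 to 70365084, minus strand), stood at 70.7 CPM (61.2 to 81.3) and 235 CPM (203 to 270), with 1.39 in the gate and 0.44 outside. Atp2c1, the Golgi calcium and manganese pump, stood at 51.8 and 190.0 CPM, with 1.53 (1.22 to 1.89) in the gate and 0.69 outside. Pgrmc1, a heme-binding membrane protein, stood at 140.3 and 412 CPM, with 1.22 and 0.70.

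The 10 lowest were Aebp1, Usp46, Casc4, Nfe2l1, Pcp4, Cox8b, Baiap2l1, Cfap36, Zfp106 and Rpl36. Aebp1, a protein tied to extracellular matrix (mm10 chromosome 11, 5861947 to 5872088, plus strand), stood at 115 CPM (103 to 128) in the control and 49.6 CPM (35.7 to 67.0) in EMF_AuNPs, a ratio of -1.52 (-2.04 to -1.07). It was -0.85 outside the gate and -0.18 in microglia. Pcp4, a calmodulin regulator (mm10 chromosome 16, 96467606 to 96525793, plus strand), stood at 531 and 325 CPM, with -1.03 (-1.22 to -0.85) in the gate and -1.37 outside. Thinned to 2000 UMIs it was found in 54.4% of control and 38.5% of EMF_AuNPs barcodes. Cox8b, a cytochrome oxidase subunit that is also one of the 15 leading genes, stood at 285 and 166 CPM, with -1.10 in the gate and -0.78 outside. Nfe2l1, a transcription factor that restores proteasome levels, stood at 317 and 184 CPM, with -1.10 and -1.13.

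The same genes were read in the other barcodes. In barcodes with fewer than 3 gate genes 6 of the 10 highest genes were also higher, where 8.1% of all genes tested in the gate were, and the other ones were Slc12a2, Cntn1, Ids and Tc2n, with ratios of -0.00, 0.40, 0.44 and 0.27. Of the 10 lowest, 9 were lower there too, Rpl36 being the exception, against 7.97% of all genes tested in the gate. In the barcodes left out by the exclusion genes 10 of the 10 highest were higher, against 10.8% of all genes tested in the gate, and 10 of the 10 lowest were lower, against 10.2%. All these populations share the 2 libraries, so the counts stand side by side as a description.

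**Figure D5:**
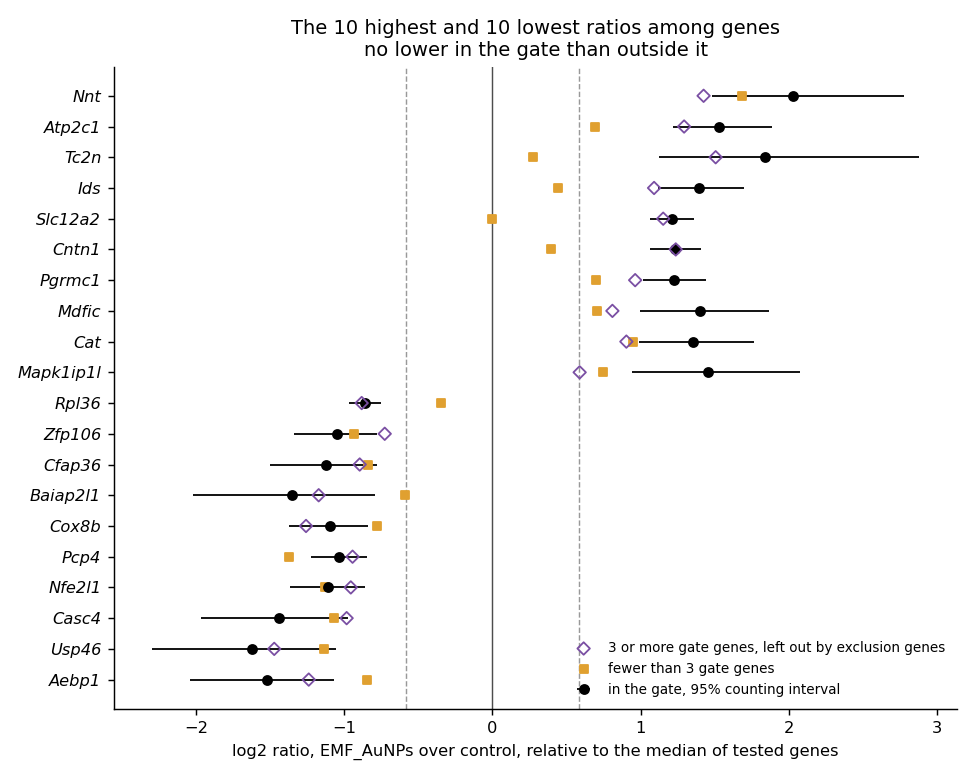
Centred log2 ratio (EMF_AuNPs over control) for the 10 highest and 10 lowest genes in the gate (points with 95% counting intervals), in the barcodes left out by exclusion genes (diamonds) and in those with fewer than 3 gate genes (squares). Slc12a2 lies at 1.21 in the gate and -0.00 in the squares, while Pcp4 lies at -1.03 and -1.37.

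RNA of other cells was present in the gate at low levels that differed between the libraries. Red blood cell markers (3 in the files) summed to 618 CPM in the control and 1866 CPM in EMF_AuNPs, against 15184 and 47314 CPM in barcodes with fewer than 3 gate genes. Hbb-bs, a haemoglobin gene, was found in 26.6% and 70.5% of gated barcodes thinned to 2000 UMIs, and in 52.2% and 99.6% of microglia. The 10 microglia markers summed to 272 and 513 CPM, the 7 endothelial markers to 116 and 170.0 CPM and the 6 mural markers to 88.6 and 111 CPM. The microglia sum holds the exclusion genes Cx3cr1 and Csf1r, and the endothelial sum holds Cldn5 and Flt1. The oligodendrocyte and astrocyte sums given above hold Mog and Aqp4. The rule sets the low counts of these exclusion genes. Fibroblast markers summed to 24.6 and 28.3 CPM, with Lum at 0 in both libraries and Dcn, Col1a1 and Col3a1 at 0 in EMF_AuNPs. Border macrophage markers had 6 and 3 UMIs, with Lyve1 and Cd163 at 0 in both, T and NK cell markers had 1 and 1, and neuron markers had 92 and 12. The part of these markers in the ratios above was not tested.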

How the data were processed

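Single-cell RNA was measured in 2 libraries of papain-dissociated hippocampus, 1 per group, grouped by the treatment label. The deposited matrices hold raw UMI counts per gene and barcode, which the authors made by aligning to mm10. The submitters' processing notes name Cell Ranger 3.0.2 and STAR and no annotation. There are 24130 gene symbols, 123 of them joint symbols kept as given, and 0 mitochondrial genes, so a mitochondrial share could not be checked.

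The deposited barcodes were used with no further filter beyond the rule. Scrublet (scanpy 1.11.5, 30 components) called 15.4% of control barcodes (17.3% expected) but 0.143% of EMF_AuNPs barcodes (5.60% expected), so it did not work in the second library. Within the gate it called 42 of 275 control barcodes (15.3%) and 0 of 92 EMF_AuNPs barcodes. Among the barcodes left out by the exclusion genes it called 70 of 272 and 0 of 108. Doublets were left in except in 2 alternatives. UMIs of gated barcodes were summed per library. Levels have exact Poisson, shares Clopper-Pearson and ratios exact conditional binomial intervals with nothing added, all at 95% and for counting error only. With 1 library per group there is no test. The functions were tested on simulated data. Scripts used Python 3.11.15, numpy 2.4.6, scipy 1.17.1 and pandas 2.3.3.

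Named genes were the 10 highest and 10 lowest of the genes at least as high in the gate as in all other barcodes of both libraries, ranked by the interval bound nearest 0, the 2 tested members of largest absolute ratio of each list, the 15 leading genes (at least 100 CPM in the gate, 10 CPM added), and the rule's 15 genes. Other list members named for their role, and Ttr, Enpp2, Igf2, Prlr, Slc12a2 and S100a9, were chosen after their values were seen. The members and lists were chosen with earlier results of these data known. Of the listed symbols 5 were missing from the files. Gene coordinates are from GENCODE M21 (GRCm38). Some members of the lists are counted in them but not reported here by name.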

Additional observations from a re-analysis of the deposited data

How the results depend on the processing

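Alternatives were 17 settings, 13 planned and 4 added after the data were seen (no exclusion genes, Foxj1 and Tmem212 not counted, the highest doublet scores left out, and gated barcodes of at least 5000 UMIs). The difference in share was 0.622 points when barcodes of at least 1000 UMIs were thinned to 1000 UMIs before the gate and shallower ones left out, against 0.0396. The 629 higher and 597 lower genes became 1363 and 203 without centring (87.0% of called genes higher, against 51.3%), 404 and 432 with 10 CPM added (48.3% higher), 286 and 225 with a minimum of 50 CPM (fewer genes tested), and 2103 and 2073 with no minimum (more genes tested). Of the 629 and 597 genes, 419 and 429 kept their call with no exclusion gene detected and 385 and 360 with no exclusion genes used. Here 1 higher gene turned lower with no exclusion gene detected and 1 lower gene turned higher with at least 2 gate genes. The ratio of Dusp1 turned from -0.83 to 0.166 with barcodes weighted equally, and the cause was not tested. Of 1506 gene values 1347 stayed within the counting interval, 158 left it without turning a called gene, and 1 turned. Of 271 medians of lists with an interval 259 stayed within it and 12 left it. Lists of under 6 tested genes have no interval, and 112 of their 118 medians stayed within the range of the list's members. The junction median ranged from 0.07 to 1.14, that of ribosomal protein genes from -0.55 to -0.19 and that of ion and fluid transport from 0.21 to 0.62. Other medians changed sign between settings. Among them were those of nuclear-retained RNAs (-0.36 to 0.76), glucocorticoid-induced genes (-0.65 to 0.53), antioxidant genes (-0.22 to 0.22) and secreted proteins (-0.23 to 0.15). Depth limits most genes, since tested genes had as few as 50 UMIs over both libraries and the EMF_AuNPs gate held 92 barcodes. No paired analysis was possible because each group is 1 library and the labels give no replicate number that links them.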
